A study of Mus musculus with 8 samples.

Results

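Type I interferon stimulated genes are genes whose transcription is switched on when a cell receives interferon alpha or beta. They were described here in mouse osteoblastic cells (OBCs), which build bone. A list of 32 such genes was matched by symbol to a deposited expression table of 17068 genes, and 30 had a row. Mx1 and Mx2 had no row and were not analysed here. The leukemic group held 4 libraries of OBCs from female C57BL/6J mice, about 10 weeks of age, that carried BCR-ABL+ B-ALL, a leukemia of immature B cells. The control group held 4 libraries of OBCs from healthy females of the same strain and age. The OBCs were sorted by FACS straight from collagenase-digested long bones, and the labels do not give the sort markers or how the leukemia was established. The comparison asks how bone-forming cells differ between leukemic and healthy animals, in a study of sclerostin and bone loss in B-ALL. The labels do not say whether each library came from its own mouse, so the p-values below measure spread between libraries that may be technical.

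Interferon alpha and beta bind a receptor of the subunits Ifnar1 and Ifnar2, which activates the kinases Jak1 and Tyk2. Signalling then passes to a complex with Stat2 and Irf9 that binds the interferon-stimulated response element (ISRE) in promoters. The induced proteins detect foreign nucleic acid, block viral replication and feed back on the pathway itself. In bone, interferon beta is known as a brake on the formation of osteoclasts, the cells that resorb bone.

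Expression was given as FPKM, fragments scaled by transcript length and library size, so levels of different genes can be compared per length. Summed FPKM ran from 456190 to 632060 per library and genes at 1 FPKM or more from 10911 to 11162. Read depth is unknown, because no counts were used. A gene was tested, with limma on log2(FPKM + 1), if 4 or more libraries reached 1 FPKM, which left 11214 genes and 27 of the 30 interferon-stimulated genes. Of these 27, 23 reached 1 FPKM in all 8 libraries, and none passed through a single group alone. The exceptions, with some libraries under 1 FPKM, were Oasl1, Rsad2, Trim30a and Dtx3l. Osteoblast genes were abundant in every library, with a summed level of 44305 to 90250 FPKM over 9 markers led by Spp1, Ibsp and Col1a1, of which 1 had a higher leukemic mean. Leukemic libraries 1 and 2 were rich in short transcripts (Spearman rho of deviation with transcript length -0.354 and -0.346 across genes), and leukemic library 4 and control library 4 in long ones (0.328 and 0.35).

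The interferon-stimulated genes were mostly higher in leukemic OBCs, but none of them passed the threshold over all genes. The ratio of mean FPKM was highest for Zbp1 (3.75), Isg15 (3.57) and Xaf1 (3.40), followed by Oasl1 (2.76) and Ifi44 (2.55). Of the 27 tested, 26 had a positive log2 fold change (the leukemic mean of log2(FPKM + 1) less the control mean, which understates changes of low genes), against 46.4% of all genes tested. Their median log2 fold change was 0.53, against -0.025 over all genes tested. With limma p-values adjusted by Benjamini-Hochberg over the 11214 genes, 0 of the 27 had an adjusted p under 0.05, and the share of all genes so called was 0% in each direction. At an unadjusted p under 0.05, 10 of the 27 were higher (37.0%) and 0 lower, where 2.49% of all genes were higher and 4.13% lower. In 3 of the 27 (11.1%), namely Zbp1, Xaf1 and Isg15, every leukemic library lay above every control library, where 0.954% of all genes did so. In 0 of the 27 did every leukemic library lie below every control, where 2.9% of all genes did. Without the filter on low values, 27 of 30 had a positive log2 fold change, where the median over all genes was -0.0084. In that setting 6 of the 30 were higher at an unadjusted p under 0.05, where 2.33% of all genes were. Genes of 1 induced program vary together, so these counts are not counts of independent events. In a mixed sort, more cells with the program and more RNA of it per cell cannot be told apart.

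**Figure D1:**
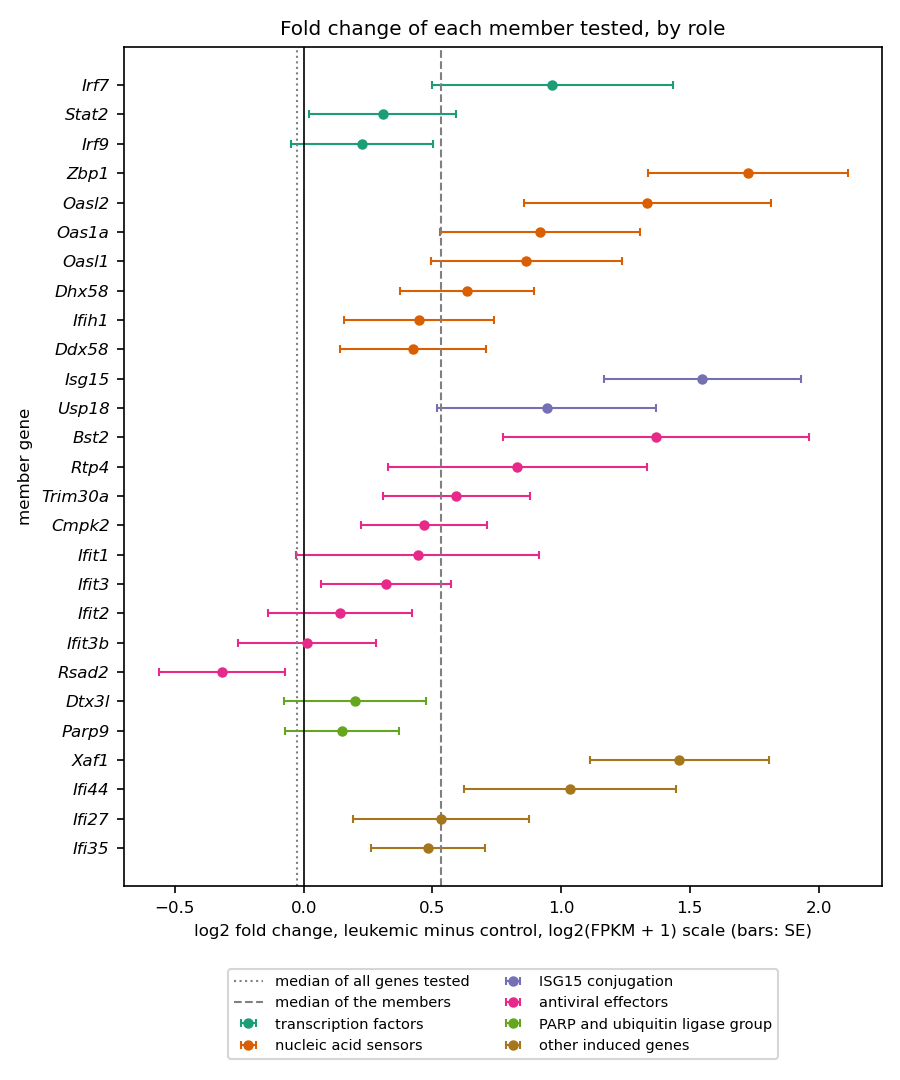
Log2 fold change of the 27 interferon-stimulated genes tested (points, leukemic less control, from log2(FPKM + 1)) with its SE (bars), by role. Of these, 26 points lie right of 0, and the median of 0.53 (dashed line) stands above that of all genes tested (-0.025, dotted line).

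Promoter windows of 300 bases, from 250 before to 50 after the annotated start, were available from RefSeq (GRCm38.p6) for 22 of the 30 genes. The ISRE core was searched as GAAANNGAAA on both strands, and no other spacing was searched. It was present in 12 of these 22 genes (54.5%), against 3.99% of the 27025 genes with a window and 3.76% of the genes tested. A shorter core of gamma-activated sites, TTCNNNGAA, which reads the same on both strands, was present in 4 of 22 (18.2%), against 9.55% of all genes. In 6 genes the same window held more than 1 ISRE core. The windows below are shown for Isg15, Oas1a and Bst2, where cores overlap in a tandem run, and for the copies Ifit3 and Ifit3b. Xaf1 is also shown, as it held no core of this spacing although its groups did not overlap. Its window does hold gaaacgaaa, with a spacing that was not searched. ISRE cores are in capitals, and each window is written 5′ to 3′ along its gene.
Isg15 (chr4:156200769-156201068, strand -): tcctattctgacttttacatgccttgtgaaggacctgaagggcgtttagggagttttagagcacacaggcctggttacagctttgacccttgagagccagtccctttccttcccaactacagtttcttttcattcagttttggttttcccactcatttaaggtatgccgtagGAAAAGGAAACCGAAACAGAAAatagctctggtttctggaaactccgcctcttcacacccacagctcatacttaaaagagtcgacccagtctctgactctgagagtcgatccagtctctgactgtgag
Oas1a (chr5:120907476-120907775, strand -): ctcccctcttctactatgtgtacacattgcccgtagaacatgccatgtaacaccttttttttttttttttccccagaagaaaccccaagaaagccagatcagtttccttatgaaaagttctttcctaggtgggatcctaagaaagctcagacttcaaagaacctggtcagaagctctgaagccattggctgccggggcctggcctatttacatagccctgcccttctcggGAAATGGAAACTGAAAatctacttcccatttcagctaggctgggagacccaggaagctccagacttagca
Bst2 (chr8:71537423-71537722, strand -): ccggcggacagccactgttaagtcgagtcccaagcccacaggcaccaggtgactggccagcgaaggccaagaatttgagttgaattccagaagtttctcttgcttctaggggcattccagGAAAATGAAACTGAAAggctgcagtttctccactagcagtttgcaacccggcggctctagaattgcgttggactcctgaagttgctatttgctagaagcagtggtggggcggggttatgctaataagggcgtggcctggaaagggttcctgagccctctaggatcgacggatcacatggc
Ifit3 (chr19:34583279-34583578, strand +): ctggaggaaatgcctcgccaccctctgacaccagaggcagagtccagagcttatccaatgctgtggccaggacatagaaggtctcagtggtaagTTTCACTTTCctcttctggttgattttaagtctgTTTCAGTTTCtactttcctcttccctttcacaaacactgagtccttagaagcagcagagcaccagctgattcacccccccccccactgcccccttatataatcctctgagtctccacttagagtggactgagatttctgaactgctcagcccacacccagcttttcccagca
Ifit3b (chr19:34607707-34608006, strand +): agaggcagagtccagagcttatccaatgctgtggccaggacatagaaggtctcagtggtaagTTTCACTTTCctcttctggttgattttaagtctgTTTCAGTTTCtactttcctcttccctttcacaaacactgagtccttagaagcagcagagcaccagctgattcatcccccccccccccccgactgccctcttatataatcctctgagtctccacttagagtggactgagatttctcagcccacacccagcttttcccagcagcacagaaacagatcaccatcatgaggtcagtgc
Xaf1 (chr11:72301379-72301678, strand +): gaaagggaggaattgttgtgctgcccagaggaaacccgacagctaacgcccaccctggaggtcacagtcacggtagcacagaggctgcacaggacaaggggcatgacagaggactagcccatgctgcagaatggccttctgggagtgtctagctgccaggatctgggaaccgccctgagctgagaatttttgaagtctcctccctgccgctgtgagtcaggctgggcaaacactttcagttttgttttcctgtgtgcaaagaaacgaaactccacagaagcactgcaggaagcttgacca
Positions are counted from the annotated start that each window was built on, at 0. That start can differ from the gene limits given here, as it does for Oas1a and Xaf1. Isg15 held 3 overlapping cores from position -78, Oas1a held 2 from position -20 and Bst2 held 2 from position -130. Ifit3 held cores at -156 and -122 and Ifit3b at -188 and -154, all on the opposite strand. The windows of Ifit3 and Ifit3b matched at 75% of 268 aligned bases when shifted by 32 bases, without gaps. The stretch that holds the cores reads the same in both windows. A run of c after it differs in length, which puts the bases beyond it out of step in this count.

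A core was found both in genes with larger and in genes with smaller differences between groups. Of the 10 genes with an unadjusted p under 0.05, 7 had a window and 3 of these held a core. Among the other 15 genes with a window, 9 held one. The median log2 fold change was 0.44 over the genes tested with a core and 0.67 over those with a window and no core. These matches are letters in 1 annotated window per start and say nothing of binding. Usp18, Zbp1, Rtp4, Ifi27, Oas2, Dhx58, Parp9 and Parp14 had no window in the table used.

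The transcription factors stood at moderate levels with overlapping groups. Irf7, the factor that amplifies interferon production once induced (gene ID 54123, chromosome 7, 141263183 to 141266499 in GRCm38.p6, as for all positions here), stood at 11.80, 18.95, 22.77 and 37.67 FPKM across leukemic libraries 1 to 4. Across control libraries 1 to 4 it stood at 13.09, 5.12, 25.07 and 6.18 FPKM. Leukemic library 4 was the highest of all, control libraries 2 and 4 were the lowest, and control library 3 lay among the leukemic values. The log2 fold change of Irf7 was 0.97 (SE 0.47; limma adjusted p = 0.695 over all genes). Irf9, the DNA-binding partner of Stat2, stood at 23.3 ± 6.07 FPKM (SD, n = 4) in the leukemic group and 20.1 ± 7.56 FPKM (n = 4) in controls. Stat2 stood at 8.95 ± 1.17 against 7.56 ± 3.58 FPKM. The log2 fold changes of Irf9 (0.23, SE 0.28) and Stat2 (0.31, SE 0.29) were within about 1 SE of 0, and both genes were highest in control library 3.

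The Oas and Oasl genes were counted with the sensors of foreign nucleic acid. All 7 sensors tested had positive log2 fold changes, where 46.4% of all genes tested did. Of the 7, 5 had an unadjusted p under 0.05 (Zbp1, Oasl2, Oasl1, Oas1a and Dhx58), where 2.49% of all genes were higher at that p. Zbp1, which detects Z-form nucleic acids and can start necroptosis (58203, chromosome 2, 173206612 to 173218959), stood at 7.74, 16.51, 11.52 and 8.10 FPKM across leukemic libraries 1 to 4. Across control libraries 1 to 4 it stood at 3.23, 1.09, 6.01 and 1.36 FPKM. The lowest leukemic library exceeded the highest control, control library 3. Zbp1 had the lowest limma p-value of the 27 genes. Its log2 fold change was 1.72 (SE 0.39; limma adjusted p = 0.402).

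Oasl2, an oligoadenylate synthetase-like protein (23962, chromosome 5, 114896926 to 114912245), stood at 11.38, 25.67, 21.99 and 40.03 FPKM in leukemic libraries 1 to 4. Its control values were 11.39, 2.65, 15.99 and 9 FPKM. Leukemic libraries 2, 3 and 4 lay above all controls, while leukemic library 1 lay just under control library 1. The log2 fold change was 1.34 (SE 0.48; limma adjusted p = 0.695).

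Oasl1, which in mice restrains translation of Irf7 (231655, chromosome 5, 114923143 to 114937911), stood at 1.33, 1.56, 3.27 and 5.69 FPKM in leukemic and 0.85, 1.71, 1.49 and 0.24 FPKM in control libraries 1 to 4. Only leukemic libraries 3 and 4 exceeded every control. Oas1a, a synthetase that activates RNase L (246730, chromosome 5, 120896256 to 120907544), stood at 5.25, 9.12, 7.77 and 14.16 against 4.64, 4.89, 7.38 and 1.38 FPKM. Its leukemic libraries 2, 3 and 4 lay above all controls.

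Dhx58, a helicase that tunes the Ifih1 and Ddx58 sensors (80861, chromosome 11, 100694884 to 100704271), stood at 3.20, 5.31, 4.10 and 4.83 against 4.33, 1.90, 2.52 and 1.49 FPKM. Control library 1 lay within its leukemic range, and the other controls lay below it. The log2 fold changes were 0.87 for Oasl1 (SE 0.37), 0.92 for Oas1a (SE 0.39) and 0.64 for Dhx58 (SE 0.26), each with a limma adjusted p of 0.695. Ifih1 (4.64 ± 1.66 against 3.10 ± 1.14 FPKM) and Ddx58 (7.57 ± 3.28 against 5.27 ± 1.79 FPKM), the cytosolic receptors MDA5 and RIG-I, overlapped between groups. Oas2 stood at 0 to 0.30 FPKM and Oas3 at 0 to 0.28 FPKM over all 8 libraries, too low to be tested.

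The value of Oas1a is uncertain, because 68.7% of its 31-base subsequences also occur in transcripts of its neighbour Oas1g. Summed over Oas1a and Oas1g, the level was 10.97 ± 4.85 FPKM (n = 4) in the leukemic group and 5.45 ± 3.00 FPKM (n = 4) in controls.

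ISG15 is a small protein that is joined to other proteins like ubiquitin, and both members of this system were higher in the leukemic mean. Isg15 (100038882, chromosome 4, 156199424 to 156200818) stood at 7.79, 19.41, 11.35 and 6.34 FPKM across leukemic libraries 1 to 4. Across control libraries 1 to 4 it stood at 4.80, 1.26, 4.34 and 2.17 FPKM, so that the groups did not overlap. The log2 fold change of Isg15 was 1.55 (SE 0.38; limma adjusted p = 0.485). Isg15 is short (756 bases), and with the trend in transcript length removed from each library its log2 fold change was 0.82 and the groups overlapped. That removal used the longest transcript of each gene. With the median transcript length, an alternative chosen after seeing the data, it was 1.37 and the groups did not overlap. Usp18, which removes ISG15 from proteins and dampens signalling at Ifnar2 (24110, chromosome 6, 121245906 to 121270917), stood at 5.88, 20.78, 12.48 and 21.84 against 7.45, 3.70, 12.71 and 5.19 FPKM. Leukemic libraries 2 and 4 stood apart above, and leukemic library 1 lay among the controls. The log2 fold change of Usp18 was 0.94 (SE 0.42; limma adjusted p = 0.695).

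Of the 4 enzymes that attach ISG15, 3 had positive log2 fold changes, where 46.4% of all genes tested did. Uba7, the activating enzyme, stood at 4.55, 10.70, 10.44 and 12.66 FPKM in leukemic and 7.31, 1.49, 7.25 and 3.31 FPKM in control libraries 1 to 4. Again leukemic library 1 lay among the controls, and the log2 fold change was 0.95 (SE 0.42; limma adjusted p = 0.695). Ube2l6, the conjugating enzyme, stood at 41.7 ± 17.2 against 27.9 ± 7.75 FPKM (n = 4 each), and Herc6, the main ISG15 ligase in mice, at 3.74 ± 1.43 against 2.53 ± 0.687 FPKM.

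**Figure D2:**
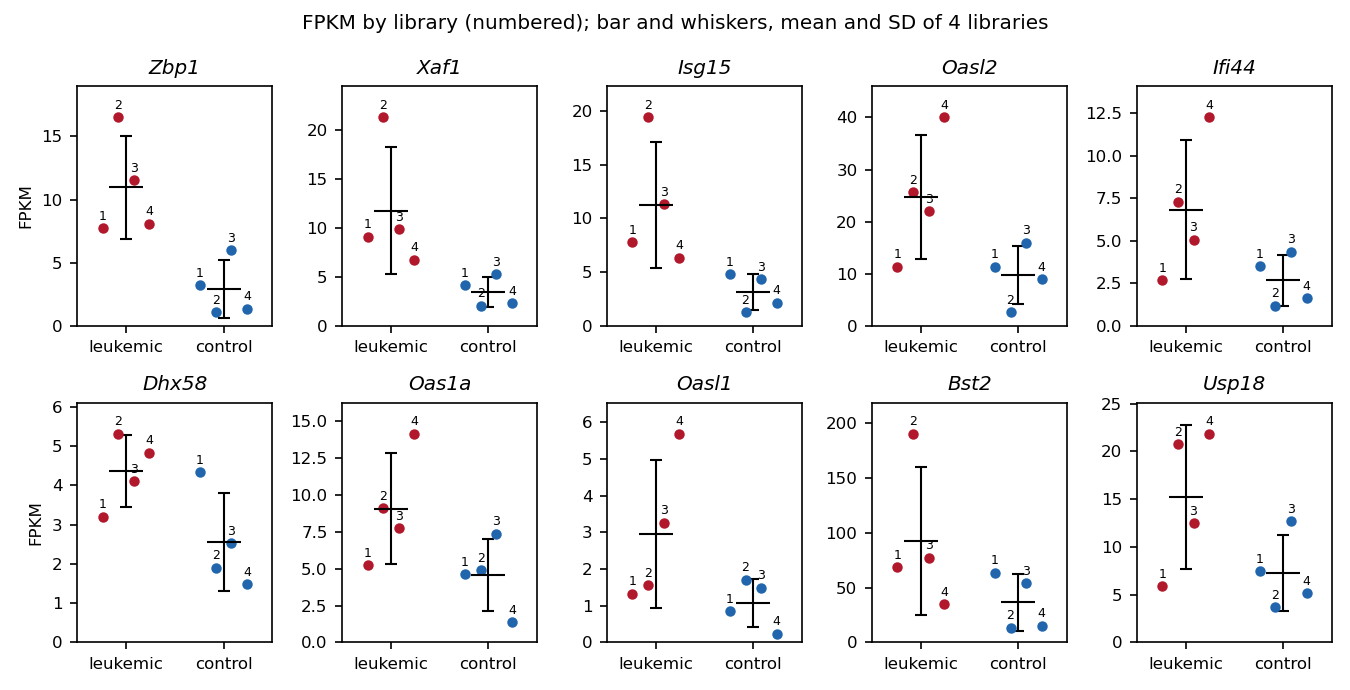
FPKM of the 10 interferon-stimulated genes with an unadjusted p under 0.05, by library (points numbered 1 to 4), with the mean and SD of each group. Groups do not overlap in Zbp1, Xaf1 and Isg15. Leukemic library 1 lies within the control range in Oasl2, Oasl1, Oas1a, Dhx58, Ifi44 and Usp18, and just above it in Bst2.

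The antiviral effectors gave a mixed picture, with 8 of 9 tested positive and 1 under an unadjusted p of 0.05. Over all genes tested, 46.4% were positive and 2.49% were higher at that p. Bst2, the membrane protein tetherin that holds budding virions on the cell (69550, chromosome 8, 71534255 to 71537472), stood at 68.40, 190.09, 77.21 and 34.68 FPKM in leukemic libraries 1 to 4. Its control values were 63.47, 13.52, 53.92 and 15.22 FPKM. Leukemic library 2 stood far above the rest, and leukemic library 4 lay below controls 1 and 3. The log2 fold change was 1.37 (SE 0.59; limma adjusted p = 0.695). After removal of the trend by the longest transcript the Bst2 log2 fold change was 0.67, and by the median transcript length 1.199.

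The Ifit genes, whose products bind viral RNA ends, had group differences within the spread of their libraries. Ifit1 stood at 11.9 ± 4.51 FPKM (n = 4) in the leukemic group and 10.0 ± 8.55 FPKM (n = 4) in controls, and its highest value of all was 22.36 FPKM in control library 3. Ifit2 stood at 3.55 ± 1.60 against 2.94 ± 0.604 FPKM. Ifit3 stood at 28.2 ± 6.15 against 22.8 ± 7.46 FPKM, and Ifit3b at 5.90 ± 1.91 against 5.88 ± 1.83 FPKM. Ifit3 and Ifit3b lie 18547 bases apart on chromosome 19 and share sequence: 61.8% of the 31-base subsequences of Ifit3 occur in Ifit3b. Their sum was 34.1 ± 6.75 against 28.7 ± 7.97 FPKM.

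Rsad2, the enzyme viperin that makes an antiviral nucleotide, was the single member tested with a negative log2 fold change (-0.32, SE 0.25). It was near the 1 FPKM minimum, at 0.23 to 1.13 FPKM in leukemic and 0.43 to 1.30 FPKM in control libraries. Cmpk2, a mitochondrial nucleotide kinase encoded 12664 bases from Rsad2 on the opposite strand, went the other way, at 3.34 ± 1.27 against 2.05 ± 0.389 FPKM (log2 fold change 0.47, SE 0.25). Rtp4, a receptor transporter with antiviral action, stood at 39.99 ± 16.001 against 26.65 ± 23.97 FPKM and was highest in control library 3 (61.74 FPKM). Trim30a, which in mice restrains Toll-like receptor signalling, stood at 1.67 ± 0.863 against 0.748 ± 0.464 FPKM.

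The Parp9 and Dtx3l pair, a complex that ADP-ribosylates and ubiquitinates proteins, showed the smallest differences as a role. Dtx3l (209200, chromosome 16, 35926515 to 35939027) stood at 1.03, 1.85, 3.13 and 2.5 FPKM in leukemic and 1.68, 0.91, 2.66 and 1.56 FPKM in control libraries 1 to 4. The groups overlapped, with a log2 fold change of 0.20 (SE 0.28; limma adjusted p = 0.87). Parp9 stood at 6.57 ± 1.74 against 5.76 ± 1.08 FPKM. These 2 genes run in opposite directions and overlap by 558 bases, and the library kit does not mark strand, so reads in the overlap cannot be assigned with certainty. Parp14, a related ADP-ribosyltransferase, reached 1 FPKM in 3 libraries and was not tested (0.68 to 2.53 FPKM).

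Of the other induced genes, Xaf1 and Ifi44 had an unadjusted p under 0.05. Xaf1, a partner of the caspase inhibitor XIAP that favours cell death (327959, chromosome 11, 72301461 to 72313733), stood at 9.11, 21.30, 9.90 and 6.76 FPKM in leukemic libraries 1 to 4. Control libraries 1 to 4 stood at 4.14, 2.08, 5.29 and 2.35 FPKM, all below the lowest leukemic value. The log2 fold change of Xaf1 was 1.46 (SE 0.35; limma adjusted p = 0.444). After removal of the length trend by the longest transcript the Xaf1 log2 fold change was 1.49, and by the median length 1.26.

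Ifi44 (99899, chromosome 3, 151730922 to 151749910) stood at 2.68, 7.30, 5.07 and 12.27 against 3.52, 1.2, 4.37 and 1.62 FPKM. Leukemic libraries 2, 3 and 4 lay above all controls (log2 fold change 1.03, SE 0.41; limma adjusted p = 0.695). Ifi35, a partner of Nmi, stood at 47.8 ± 13.4 against 33.3 ± 5.51 FPKM. Ifi27, a small mitochondrial membrane protein, was the most abundant member, at 205 ± 97.2 against 132 ± 32.8 FPKM. The Ifi27 log2 fold change of 0.53 (SE 0.34) was 0.026 with the trend removed by the longest transcript, 0.38 with it removed by the median transcript length, and 0.26 to 0.85 with 1 library left out.

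Libraries of 1 group differed from each other in a pattern shared by many of the genes. The mean log2(FPKM + 1) over the 27 genes tested was 2.97, 3.72, 3.59 and 3.61 across leukemic libraries 1 to 4, and across control libraries 1 to 4 it was 2.96, 2.41, 3.36 and 2.49. Leukemic library 1 thus stood at the level of control library 1 and below control library 3. Over all genes tested the same mean stayed between 3.43 and 3.58. In 22 of the 27 genes the highest library was leukemic, and in 25 the lowest was a control, with control library 2 lowest in 17 and control library 4 in 7. Controls 2 and 4 both lay below controls 1 and 3 in 19 of the 27, where 24.7% of all genes tested showed this order. Leukemic library 1 was the lowest of the leukemic group in 20. For these counts of highest and lowest libraries, no share over all genes tested is given. With the length trend removed by the longest transcript, control library 2 was lowest in 16 and control library 4 in 5.

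**Figure D3:**
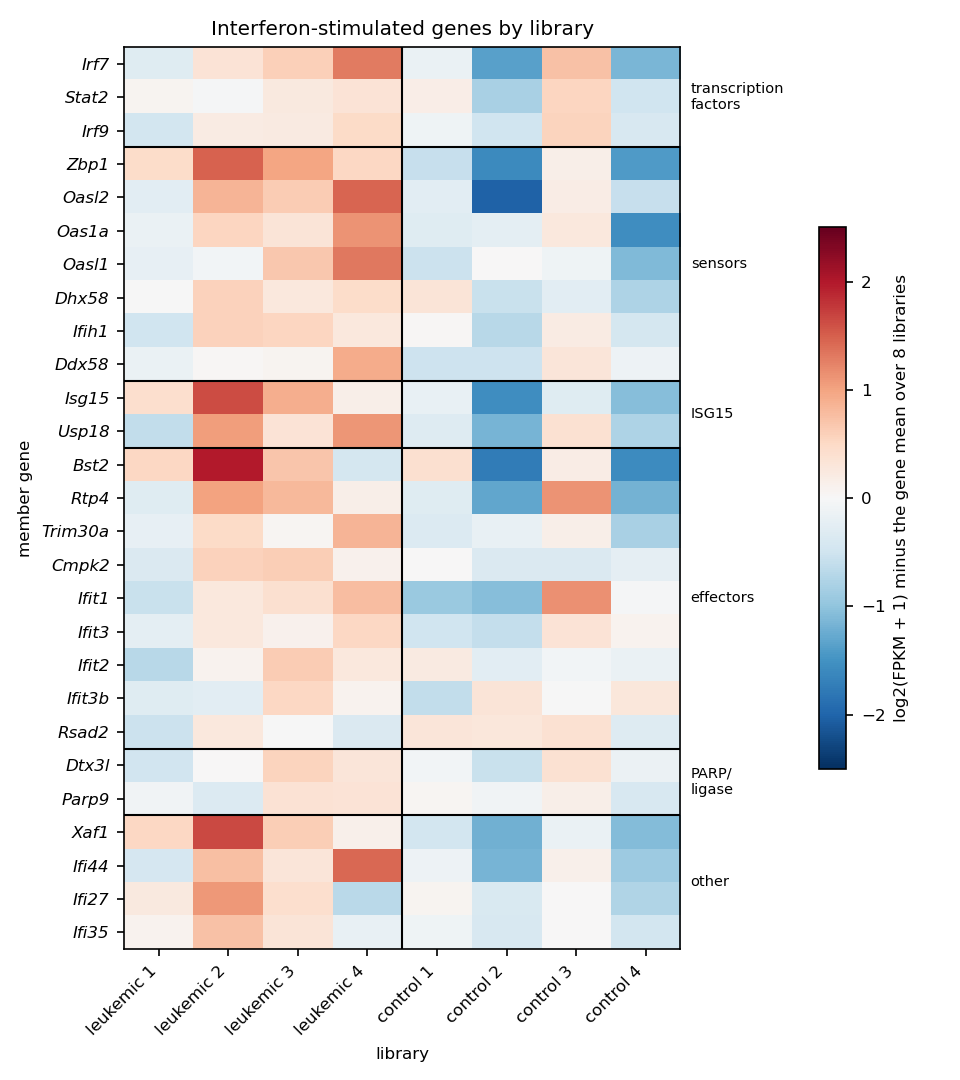
Level of each interferon-stimulated gene tested in each library, as log2(FPKM + 1) minus the mean of the gene over the 8 libraries (colour), with genes grouped by role. Control libraries 2 and 4 are blue in most genes, control library 3 is red in many, and leukemic library 1 is blue in many.

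The genes also differed in where they peaked within the leukemic group. Isg15, Bst2, Ifi35, Ifih1, Xaf1, Dhx58, Ifi27 and Zbp1 were highest of all in leukemic library 2. Ifit3, Irf7, Oasl1, Oasl2, Oas1a, Usp18, Ifi44, Ddx58 and Trim30a were highest in leukemic library 4. Genes higher in library 2 than in library 4 (11 of 27) had a median longest transcript of 1989 bases, and the 16 others one of 2935 bases. Across the 27 genes, the difference between these libraries had a Spearman rho of -0.425 with transcript length, as a description, since the genes share both libraries and these differ in length balance. The Isg15, Bst2 and Ifi27 differences after removal of the length trend depended on the length used, as given above. With either length, Zbp1 (log2 fold change 1.74 by the longest and 1.71 by the median) and Xaf1 had no overlap between groups.

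**Figure D4:**
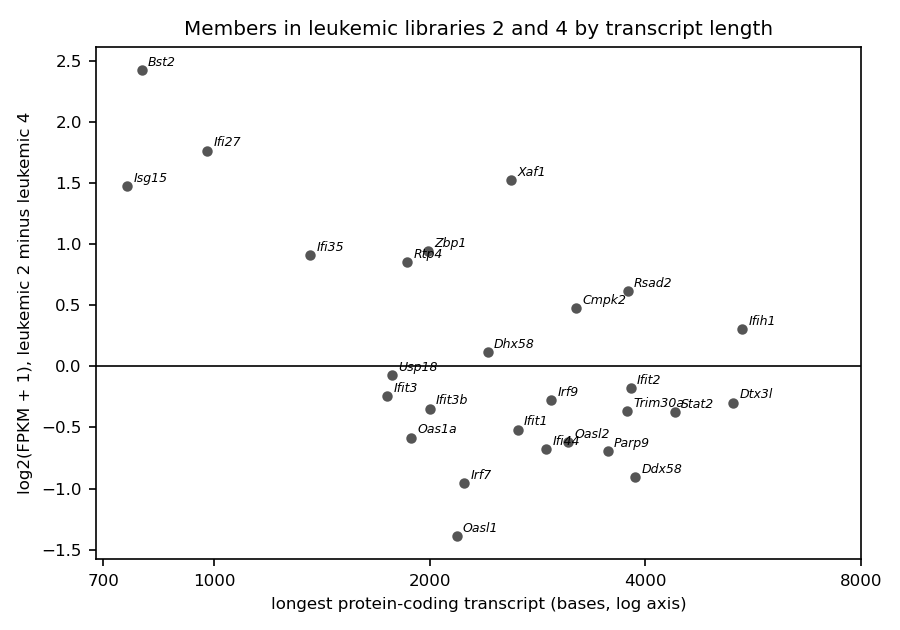
Difference in log2(FPKM + 1) between leukemic libraries 2 and 4 for each of the 27 genes tested, against the longest protein-coding transcript of the gene (log axis). Isg15 (756 bases), Bst2 (792 bases) and Ifi27 (977 bases) lie at the left end, with Bst2 and Ifi27 the highest points.

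Leaving out 1 library at a time kept a positive log2 fold change in each of the 10 genes with an unadjusted p under 0.05. These genes were picked from the same libraries, so a kept sign was close to fixed in advance and is no support. The log2 fold change ranged from 1.48 to 2.06 for Zbp1, from 1.151 to 1.66 for Xaf1 and from 1.26 to 1.76 for Isg15. The limma adjusted p-values ran from 0.0845 to 0.851 for all of these. The number of genes higher at an unadjusted p under 0.05 was 13 without leukemic library 1 (2.30% of all genes tested) and 14 without control library 3 (2.497%). It was 5 without leukemic library 2 (2.14%), 5 without leukemic library 3 (1.56%), 5 without control library 2 (1.69%) and 4 without control library 4 (1.53%). It was 7 without leukemic library 4 (11.03%) and 7 without control library 1 (3.58%). Groups did not overlap in 8 genes without leukemic library 1, in 6 without leukemic library 4 and in 5 without control library 3, where 2.22%, 8.02% and 1.85% of all genes did so.

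**Figure D5:**
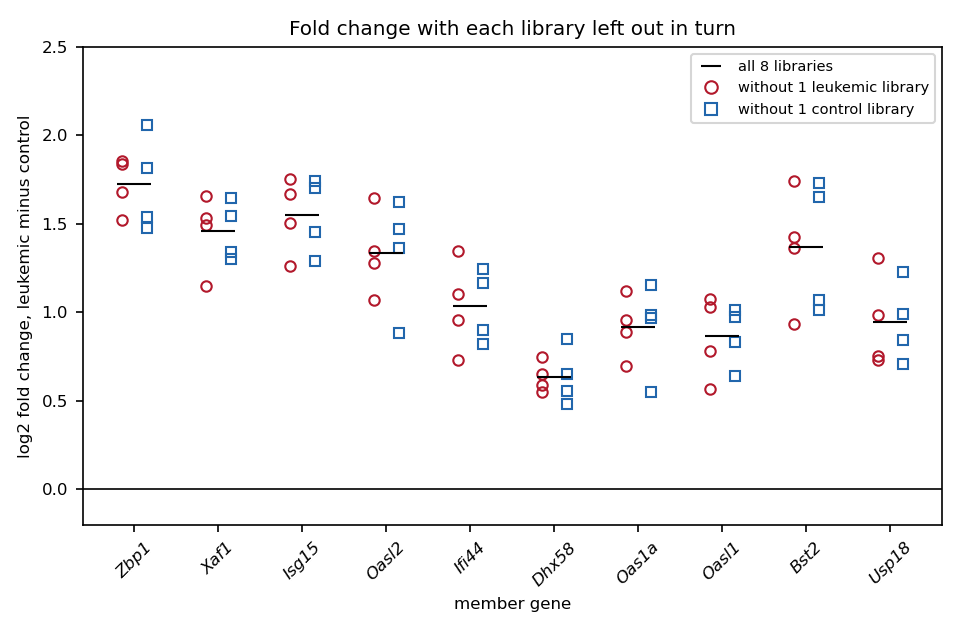
Log2 fold change of the 10 genes with an unadjusted p under 0.05 in all 8 libraries (bars) and with each leukemic (circles) or control (squares) library left out in turn. Every value lies above 0, which was close to fixed because the genes were picked from the same libraries.

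Genes upstream of the response and other induced genes were taken from a wider pathway list of 66, of which 58 had a row and 46 were tested. By limma 0 of the 46 passed over all genes, 4 were higher at an unadjusted p under 0.05 (8.70%, against 2.49% of all genes) and 0 lower. Their median log2 fold change was 0.17, with 34 positive (73.9%, against 46.4% of all genes tested). Of the interferon genes in that list only Ifna4 had a row, at 0.08 FPKM in leukemic library 1 and listed at 0 elsewhere. Those without a row were not analysed here.

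The receptor subunits and kinases had group differences within the spread of their libraries. Ifnar1 stood at 18.3 ± 2.33 against 16.6 ± 1.40 FPKM (n = 4 each) and Ifnar2 at 72.1 ± 26.6 against 57.2 ± 18.9 FPKM. Jak1 stood at 54.2 ± 9.53 against 55.3 ± 17.7 FPKM, and Tyk2 at 3.18 ± 0.868 against 3.02 ± 1.07 FPKM.

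Ly6e, a surface protein that limits entry of some viruses, stood at 84.92, 142.29, 137.87 and 101.88 FPKM in leukemic and 83.07, 58.21, 63.91 and 46.34 FPKM in control libraries 1 to 4. Its groups did not overlap, but leukemic library 1 lay close to control library 1 (log2 fold change 0.88, SE 0.23; limma adjusted p = 0.587). Tlr3, the endosomal receptor for double-stranded RNA, stood at 2.47, 2.85, 2.55 and 3.81 against 2.03, 2.05, 1.19 and 1.86 FPKM, also without overlap (log2 fold change 0.49, SE 0.20). Sp100, a protein of nuclear bodies, stood at 5.26, 13.66, 8.49 and 16.80 against 7.58, 4.36, 6.29 and 2.47 FPKM, with leukemic library 1 among the controls (log2 fold change 0.93, SE 0.37; limma adjusted p = 0.695). The feedback inhibitors Socs1 (19.1 ± 4.71 against 16.9 ± 4.14 FPKM) and Socs3 (226 ± 84.4 against 229 ± 40.0 FPKM) overlapped between groups.

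Leukocytes respond strongly to interferon, so markers of other cells that digested bone could hold were read in the same libraries. Plasmacytoid dendritic cells, which make interferon and express Bst2, had their marker Siglech at 0 in all leukemic libraries and Ccr9 at 0 to 0.09 FPKM in all 8. Of that list 4 of 7 genes with a row had a higher leukemic mean, and its sum ran from 39.5 to 56.4 FPKM in leukemic and from 42.2 to 52.6 FPKM in control libraries, most of it Tcf4. Irf8 of that list stood at 10.8 ± 3.16 against 6.16 ± 3.08 FPKM (log2 fold change 0.76, SE 0.31; limma adjusted p = 0.695). The macrophage and monocyte sum ran from 71.8 to 165 against 69.7 to 91.1 FPKM, with 5 of 10 genes higher in the leukemic mean. Its most abundant gene, Lyz2, stood at 106.87, 113.97, 69.63 and 41.04 FPKM in leukemic libraries 1 to 4. In controls Lyz2 stood between 34.75 and 47.15 FPKM. The next most abundant were not higher in the leukemic mean: Cd14 (28.2 ± 7.66 against 28.5 ± 7.07 FPKM) and Cd68 (6.48 ± 2.14 against 8.27 ± 2.37 FPKM). Adgre1 was at 0 to 0.03 FPKM in leukemic and 0 to 0.65 FPKM in control libraries. Leukemic library 2 was highest both in Lyz2 and in the mean level of the interferon-stimulated genes, and leukemic library 4 was lowest of its group in Lyz2 and second in that mean.

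B-lineage markers summed to 20.6 to 53.5 FPKM in leukemic and 19.98 to 41.1 FPKM in control libraries, with 8 of 9 higher in the leukemic mean. Most of that sum was Ebf1, the marker of this list that was lower in the leukemic mean (22.0 ± 10.9 against 27.4 ± 10.6 FPKM). The next most abundant, Cd79a (1.96 ± 1.46 against 0.79 ± 0.599 FPKM) and Blnk (1.865 ± 0.827 against 0.8075 ± 0.666 FPKM), were higher. Vpreb1, a marker of B-cell precursors, stood at 3.06, 4.33, 1.21 and 0.26 FPKM in leukemic libraries and at up to 0.53 FPKM in controls. Pan-leukocyte genes summed to 3.12 to 8.73 against 2.71 to 6.32 FPKM with 4 of 5 higher in the leukemic mean, and Ptprc (CD45) was at 0.21 to 0.79 against 0.10 to 0.74 FPKM. Neutrophil markers summed to 11.5 to 63.7 against 12.0 to 74.0 FPKM with 3 of 8 higher, and T and NK markers to 0.69 to 2.60 against 0.91 to 1.36 FPKM with 4 of 6 higher. Endothelial markers summed to 0.08 to 1.66 against 0.74 to 1.48 FPKM with 2 of 5 higher. Erythroid genes summed to 3.11 to 1342 against 20.1 to 580 FPKM with 4 of 5 higher in the leukemic mean FPKM, and their sum was highest in leukemic library 2. On the log scale the 3 erythroid genes tested had negative log2 fold changes (Hba-a1 -0.18, Hbb-bs -0.17 and Alas2 -0.61). The part of these cells in the interferon values was not tested.

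In the authors' deposited table, the log2 ratio of leukemic over control was positive for 28 of the 30 interferon-stimulated genes, with 1.88 for Isg15, 1.71 for Xaf1 and 1.70 for Zbp1. The negative ones were Oas3, at 0 to 0.28 FPKM, and Rsad2, at 0.23 to 1.30 FPKM over the 8 libraries.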

How the data were processed

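OBC RNA was turned into libraries with a SMART-Seq v4 kit, per the labels' protocols. The submitters' processing notes list RSEM 1.2.8, HISAT2 2.0.4, DESeq2, Bowtie2 2.2.5 and GRCm38.p6, without roles or settings. The authors deposited FPKM values per library, group means and a log2 ratio, per the file headers, and no source used here says how that ratio was made. The means were not used. Low FPKM values showed no steps of single reads (at most 3.6% of genes shared a ratio between libraries, binned at 0.03 log2 units), so counting intervals could not be set. RSEM shares reads between near-identical genes.

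Values were analysed as log2(FPKM + 1) with limma 3.58.1 in R 4.3.3, with a mean-variance trend, no covariates, two-sided tests and Benjamini-Hochberg adjustment over all 11214 genes that reached 1 FPKM in 4 or more libraries (5854 were not tested). No count model fits these values. The limma step was tested on simulated data. The genes, the lists and the tests were chosen with earlier results of these data known. All 30 genes with a row are named, with values in every library for those with groups that do not overlap, an unadjusted p under 0.05, or the smallest p of their role. Pathway genes are named on the same rule, with the receptors and kinases, and markers by abundance. Ube2l6, Herc6, Socs1, Socs3, Vpreb1 and the defining markers at or near 0 were named after their values were seen. Gene positions and promoter windows were from RefSeq. Gene strands, transcript lengths (longest protein-coding transcript) and transcript sequences were those of GENCODE M21 (lengths known for 99.1% of tested genes). Both sources were on GRCm38.p6. Sting1 and Cgas were matched through older symbols. Shared sequence was counted in 31-base subsequences. Alternatives were other pseudocounts, filters, scalings, variance settings, array weights, blocking on replicate number, removal of the length trend in each library (lowess, span 0.3), and leaving out libraries. Use of median lengths was added after the data were seen. Some genes of the wider lists are not reported here.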

Additional observations from a re-analysis of the deposited data

Results flagged for a closer look

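In groups of 4 libraries, 3 of the 60 groups examined held a library set apart from the rest, where chance gives about 1 in 20. Ddx58 was highest in leukemic library 4 (12.43 FPKM), with a gap to the next library of 0.846 of the group's range. Parp14 was highest in control library 3 (2.53 FPKM), with a gap of 0.87 of the range. Oas3 was listed at 0 in leukemic library 1 and at 0.01 FPKM in the other leukemic libraries, a gap of 1 of the range at the last printed digit.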

How the results depend on the processing

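Of 612 log2 fold changes of the 27 genes under 23 alternatives, 606 kept their sign, and 25 genes kept it throughout those run. No alternative brought any of these genes under an adjusted p of 0.05. The count of these genes with groups that did not overlap was 2 to 11, where 0.535% to 8.02% of all genes did so. The reversals were all in genes near 0. The Ifit3b log2 fold change was -0.11 rescaled to TPM, -0.059 with upper-quartile scaling and -0.19 to 0.12 with 1 library left out, and Ifit2 -0.049 to 0.40. The Jak1 log2 fold change was -0.11 with quantile normalization, -0.12 rescaled to TPM, -0.066 with upper-quartile scaling and -0.18 to 0.17 with 1 library left out. The Tyk2 log2 fold change was -0.015 rescaled to TPM and -0.12 to 0.20 with 1 library left out. Rescaling to TPM moved the median log2 fold change of all genes from -0.025 to -0.15 and that of the interferon-stimulated genes from 0.53 to 0.43. The causes were not tested.

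The number of interferon-stimulated genes at an unadjusted p under 0.05, 10 in all 8 libraries, was 14 with array weights (6.06% of all genes tested), 11 with the length trend removed by the longest transcript (3.39%) and 13 by the median length (3.79%). It was 6 with no filter (30 genes; 2.33%), 5 with a filter of 5 FPKM (18 genes tested, so 9 gave no value; 2.21%), 6 rescaled to TPM (1.52%) and 8 with upper-quartile scaling (2.09%). With the replicate number as a block it was 6 (5.64%), and 8 with the block and the length trend removed (3.82%). It was 9 or 10 under the other settings that kept all libraries. With 1 library left out it was 4 to 14. Groups did not overlap in 11 genes without leukemic libraries 1 and 2 (where 6.67% of all genes did so). With 1 library left out they did not overlap in 3 to 8 (1.30% to 8.02% of all genes). With the length trend removed by the longest transcript there were 2 such genes and by median lengths 3, as Isg15 was 0.82 with the former and 1.37 with the latter.

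The pathway genes at an unadjusted p under 0.05 were 4 of 46, where 2.49% of all genes tested were higher. The same share of all genes is in brackets for each setting below. They numbered 13 with array weights (6.06%), 2 with a filter of 5 FPKM (2.21%) and 7 with the length trend removed (3.39%). With the replicate block there were 2 (5.64%), rescaled to TPM 1 (1.52%), and without leukemic libraries 1 and 2 there were 8 (2.30%). With 1 library left out there were 1 to 12 (1.53% to 11.03%). Over all genes, where 0 passed an adjusted p of 0.05 and 279 were higher and 463 lower at an unadjusted p under 0.05, those higher at an adjusted p under 0.05 numbered 6 with array weights, 3 with the length trend removed, 1 with no filter, 3 with quantile normalization, 2 rescaled to TPM, 3 with upper-quartile scaling, 1 with the replicate block and the length trend removed, and 0 to 2 with 1 library left out. By unadjusted p, higher and lower genes numbered 171 and 725 rescaled to TPM, 234 and 608 with upper-quartile scaling, 633 and 405 with the replicate block, and 1237 and 506 without leukemic library 4. Same-numbered libraries deviated from their group means with correlations of -0.0717 to 0.22. Libraries of different number were not compared in this way, so these values cannot decide on pairing. The numbers were not taken as pairs because the labels do not say that they pair animals.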
